A study of Mus musculus with 14 samples.

Results

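The nuclear genome encodes most of the subunits of mitochondrial complex I and the factors that put it together, and 48 protein-coding genes of the deposited mouse brain table carry an Nduf name. They were taken by that name and biotype alone, out of 56748 rows, and 47 of them passed the filter on low counts that left 16882 genes for testing. The gene left out, Ndufb11b, held 4 reads in all, every one in Rik null libraries. Brains were compared at postnatal day 23 (P23) between 7 Rik null mice (4 female, 3 male) and 7 wild-type (WT) littermates (3 female, 4 male), all labelled strain C57BL6/J, with 1 library per mouse from 1 sagittal side of the brain. Rik null mice are homozygous for a spontaneous small deletion in an intron of 2310061I04Rik (Rik), a gene of unknown function. The labels name no treatment. The allele comes from 1 embryonic stem cell clone made for floxed Traf7 mice and was bred into C57BL6/J. Every cell of these mice carries it, and they are runted, ataxic and close to death at this age, so that effects of the gene and of illness cannot be told apart.

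Complex I (NADH:ubiquinone oxidoreductase) is the entry point of the respiratory chain. Its peripheral arm in the matrix takes electrons from NADH through a flavin and a chain of iron-sulfur clusters to ubiquinone, and its membrane arm pumps protons. The catalytic core is built from nuclear and mitochondrial subunits, accessory subunits surround that core, and assembly factors join the modules but are not part of the finished enzyme. Neurons depend strongly on this enzyme, and mice without the accessory subunit Ndufs4 are a model of Leigh syndrome.

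Total counts per library lay between 14.7 and 17.9 M. Rik itself, which checks the labels, had 18 to 56 counts in Rik null libraries and 483 to 687 counts in WT libraries (log2 fold change -3.86 ± 0.15, SE). All log2 fold changes are Rik null over WT from edgeR's quasi-likelihood test, with a standard error (SE) and a p adjusted by the Benjamini-Hochberg method over all 16882 genes. Levels are counts per M reads (CPM) relative to library sizes scaled by trimmed means. On the first principal component of all tested genes Rik null replicate 1 stood at -54.5, where the other 6 Rik null libraries lay between -23.8 and -22.0, and on the third component WT replicate 4 stood at 45.0, where the other 6 WT libraries lay between -17.5 and 3.05. Of the markers of other cell types in brain, all 5 of myelinating oligodendrocytes fell (summed level 6330 to 8418 CPM in Rik null and 9649 to 11852 CPM in WT libraries), as did all 5 of astrocytes (3698 to 4388 CPM in Rik null and 4977 to 6030 CPM in WT libraries), 4 of 5 of microglia (118 to 178 CPM in Rik null and 195 to 266 CPM in WT libraries) and all 5 of blood (222 to 387 CPM in Rik null and 377 to 780 CPM in WT libraries), while 1 of 5 neuronal markers fell (3422 to 3740 CPM in Rik null and 3575 to 3958 CPM in WT libraries). Of 5 markers each, 4 fell for choroid plexus, 2 fell for pericytes, and 1 fell and 1 rose for endothelium. A marker is said to fall or rise here where it passed an adjusted p of 0.05, as 17.9% of all genes did lower and 16.5% higher. No marker was at 0 in all libraries. In whole brain, fewer cells of a type and less RNA per cell cannot be told apart, and the part of cell makeup in the results given here was not tested.

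Promoter windows, from 250 bases before to 50 bases after the annotated start, were at hand for 41 of the 48 genes (43 windows, RefSeq on GRCm38.p6) and were searched on both strands for motifs known from respiratory chain promoters. The NRF1 motif (GCGCA, any base, then GCGC) lay in 23.3% of these windows and in 4.60% of all 32851 windows. The YY1 motif AAGATGGC lay in 18.6% of them and in 2.75% of all windows. The ETS motif CCGGAA, recognised by GABP among others, was in 27.9% against 14.9% of all windows, and the CCAAT box, CCAAT, was in 32.6% against 37.4% of all windows. The ETS and YY1 letters can share bases where they adjoin, and in 1 of the 43 windows matches of different motifs did. A match is no evidence of binding. The 120 bases before the start (the more upstream of the RefSeq and GENCODE M21 starts) follow for 4 genes whose mRNA differed between genotypes, Ndufv1 because it was higher in Rik null brains and Ndufc1, Ndufaf3 and Ndufs5 because they were lower. They are written 5′ to 3′ along the gene with motif matches in capitals.
Ndufv1, chr19:4012807-4012926, minus strand: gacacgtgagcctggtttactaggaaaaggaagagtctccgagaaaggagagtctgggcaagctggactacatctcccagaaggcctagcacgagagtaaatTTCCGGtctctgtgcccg
Ndufc1, chr3:51408989-51409108, minus strand: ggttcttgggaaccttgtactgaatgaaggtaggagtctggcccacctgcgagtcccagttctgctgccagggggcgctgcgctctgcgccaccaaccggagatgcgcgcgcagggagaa
Ndufaf3, chr9:108567437-108567556, minus strand: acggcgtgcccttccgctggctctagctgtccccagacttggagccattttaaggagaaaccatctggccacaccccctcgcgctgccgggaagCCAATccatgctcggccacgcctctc
Ndufs5, chr4:123718203-123718322, minus strand: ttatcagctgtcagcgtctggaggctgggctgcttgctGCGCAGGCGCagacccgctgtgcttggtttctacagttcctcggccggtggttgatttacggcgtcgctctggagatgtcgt
The capitals mark an ETS match in Ndufv1, a CCAAT box in Ndufaf3 and an NRF1 match in Ndufs5. Ndufc1 shows no capitals, since its YY1 match does not lie wholly within the printed bases. The 8 genes that passed the test did not have a motif in common: 1 held an NRF1 match, 2 an ETS match (Ndufv1, higher, and Ndufs8, lower), 1 a YY1 match and 4 a CCAAT box.

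With genotype as the only term, a smaller share of nuclear complex I mRNAs than of all genes passed the test. Of the 47 tested genes 8 passed an adjusted p of 0.05 (17.0%), against 34.4% of all genes tested. Ndufv1 and Ndufa4 were the 2 that rose, against 16.5% of all genes higher in Rik null brains, and the 6 that fell were Ndufc1, Ndufaf3, Ndufaf2, Ndufb2, Ndufs5 and Ndufs8, against 17.9% of all genes lower. At an unadjusted p under 0.05 there were 11, against 44.1% of all genes. These shares depend on the fit, and the 47 genes varied more over WT libraries than all genes did (median range 0.77 and 0.57 log2 units). With a covariate for each library, described below, 14 passed (gene-length slope, 40.2% of all genes) or 19 (ribosomal protein level, 37.3% of all genes). The median log2 fold change was -0.04 over the 47 genes, with a range of -0.47 to 0.34, and it was -0.00050 over all genes. No gene of the 47 reached the study's fold threshold (an absolute log2 fold change of 1), and no 95% interval extended to it, while the intervals of 35 genes lay within 0.5 of 0. In none of the 47 were the CPM of the 7 Rik null and the 7 WT libraries apart without overlap, which held for 12.4% of all genes. Without Rik null replicate 1 and WT replicate 4 the count was 7 (1 higher, 6 lower, 30.4% of all genes). Ndufa4 (adjusted p = 0.170) and Ndufs8 (0.0534) no longer passed in that fit, and Ndufaf5 (0.0327) did. With unscaled library sizes 6 of the 47 were higher and 3 lower and their median turned to 0.03 (36.1% of all genes called), while over all genes 3890 were higher and 2208 lower with a median of 0.07, against 2783 higher and 3027 lower with scaling.

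**Figure D1:**
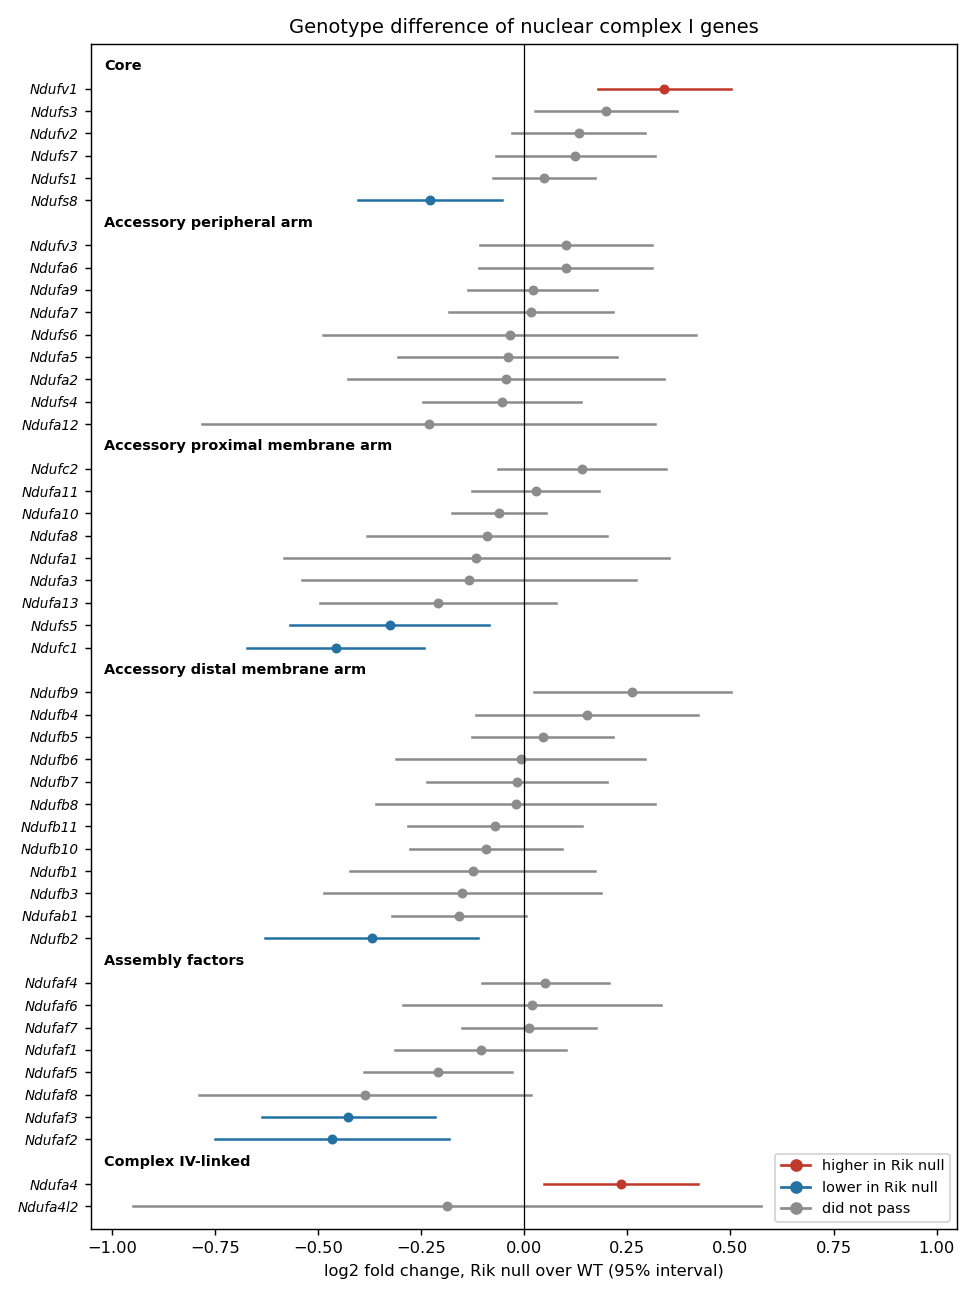
Log2 fold change of 46 of the 47 tested nuclear complex I genes, Rik null over WT (x axis), with 95% intervals from edgeR, grouped by role down the page. Red marks the 2 genes higher in Rik null brains, blue the 6 lower and grey 38 that did not pass, and every interval lies inside 1 log2 unit of 0.

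The 7 nuclear core subunits carry the flavin, the iron-sulfur clusters and the ubiquinone site. Of these 1 rose and 1 fell, against 16.5% of all genes higher and 17.9% lower. A positive log2 fold change was found for 6 of 7 (median 0.12), against 8425 of all 16882 genes. Ndufv1 (ENSMUSG00000037916, chr19:4007384-4012806, minus strand, as GENCODE M21 on GRCm38 for all gene positions here) encodes the subunit that binds NADH and the flavin. It had 160, 164 and 184 CPM (lowest, median and highest) in Rik null libraries, against 105, 129 and 164 CPM in WT libraries. All 7 Rik null libraries were above the WT median, 3 of them above every WT library, and only the highest WT library, replicate 1, lay within the Rik null range. The log2 fold change was 0.34 ± 0.08 (SE, n = 7 each, edgeR adjusted p = 0.0019), or 1.27-fold.

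Ndufs8 (ENSMUSG00000059734, chr19:3908863-3912774, minus strand) encodes an iron-sulfur subunit on the path to ubiquinone and was the core subunit that fell. It had 62.4, 69.2 and 77.3 CPM in Rik null libraries and 62.9, 89.1 and 93.0 CPM in WT libraries, so that 3 of 7 WT libraries lay within the Rik null range. Its log2 fold change was -0.23 ± 0.08 (SE, edgeR adjusted p = 0.0389). This call did not hold when 1 library was left out, for any of Rik null replicates 4, 5, 6 or 7 or WT replicates 1, 2, 4 or 5 (adjusted p 0.0556 to 0.0834). The other core subunits did not pass. Ndufs3, a core subunit without a cofactor, had 72.9, 80.9 and 103 CPM in Rik null and 59.8, 70.9 and 84.7 CPM in WT libraries (log2 fold change 0.20 ± 0.08, adjusted p = 0.0684). Ndufs1, the largest iron-sulfur subunit, was nearest to no difference (0.05 ± 0.06, adjusted p = 0.576). Ndufv2, the iron-sulfur partner of Ndufv1 in the NADH module, had a log2 fold change of 0.13 ± 0.08, and Ndufs7, which holds the last iron-sulfur cluster, one of 0.12 ± 0.09.

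None of the 9 accessory subunits of the peripheral arm passed, against 34.4% of all genes in edgeR. Nor did any of the 9 reach an unadjusted p under 0.05, in either edgeR or DESeq2. Their log2 fold changes lay between -0.23 and 0.10 with a median of -0.04. Ndufs4, which the study names for its knockout phenotype, had 55.5, 63.0 and 73.8 CPM in Rik null libraries and 47.2, 68.2 and 78.9 CPM in WT libraries. The Rik null values lay inside the WT range, and the difference was -0.05 ± 0.09 with a 95% interval from -0.25 to 0.14. The smallest p of the peripheral group was that of Ndufv3, a small NADH module subunit (log2 fold change 0.10 ± 0.10, adjusted p = 0.466). The widest interval of the group belonged to Ndufa12, a subunit that takes the place of the assembly factor Ndufaf2 late in assembly, with a log2 fold change of -0.23 ± 0.26. Its counts were 955 and 1160 in Rik null replicates 2 and 5 and 386 to 507 in the other Rik null libraries, and 1102 and 996 in WT replicates 1 and 2 and 334 to 590 in the other WT libraries. A processed pseudogene, Ndufa12-ps, drew 5244 reads over all libraries against 8967 for Ndufa12, so reads may be split between the copies. With both summed the log2 fold change was -0.18 ± 0.15 (adjusted p = 0.384).

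Among the 9 accessory subunits of the proximal membrane arm 2 fell, against 17.9% of all genes lower. In this group 7 had a negative log2 fold change (median -0.12), against 8457 of all 16882 genes. Ndufc1 (ENSMUSG00000037152, chr3:51404677-51408988, minus strand), a small membrane subunit that contacts Ndufc2, had 28.1, 31.4 and 38.0 CPM in Rik null libraries and 31.9, 44.6 and 56.8 CPM in WT libraries. All 7 Rik null libraries were below the WT median and 4 were below every WT library, and 2 WT libraries lay within the Rik null range. Its log2 fold change was -0.46 ± 0.10 (SE, edgeR adjusted p = 0.0017), or 1.37-fold lower. Its contact Ndufc2 did not pass, with 57.3, 69.1 and 76.7 CPM in Rik null and 43.1, 61.1 and 77.6 CPM in WT libraries (log2 fold change 0.14 ± 0.10, adjusted p = 0.288).

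Ndufs5 (ENSMUSG00000028648, chr4:123712710-123718202, minus strand), on the intermembrane space side of this arm, had 53.7, 56.5 and 74.8 CPM in Rik null libraries and 55.4, 68.8 and 102 CPM in WT libraries. Of the WT libraries 4 lay inside the Rik null range. A processed pseudogene, Ndufs5-ps, held 147 reads over all libraries. The log2 fold change was -0.33 ± 0.12 (SE, edgeR adjusted p = 0.0341), and the call was lost without any of Rik null replicates 2, 3, 4, 6 or 7 or WT replicates 1, 2 or 5 (adjusted p 0.0501 to 0.0899). The remaining 6 subunits of the group had log2 fold changes from -0.21 (Ndufa13, also known as GRIM-19) to 0.03 (Ndufa11).

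Ndufb2 was the single one of 12 tested subunits of the distal membrane arm to pass, against 34.4% of all genes. The median of the group was -0.05. Ndufb2 (ENSMUSG00000002416, chr6:39592574-39603382, plus strand), a small subunit of that arm, had 11.1, 16.3 and 18.7 CPM in Rik null libraries and 15.2, 18.5 and 25.4 CPM in WT libraries. In all, 4 WT libraries lay within the Rik null range. The log2 fold change was -0.37 ± 0.12 (SE, edgeR adjusted p = 0.0250), which did not hold without any of Rik null replicates 2 or 3 or WT replicates 2 or 3 (adjusted p 0.0531 to 0.0644), and exons of Ndufb2 share 146 bases with Braf on the other strand and 145 bases with Gm42420 on the same strand. Ndufb9, which binds an acyl carrier protein, had 67.4, 74.8 and 89.6 CPM in Rik null and 39.6, 60.6 and 84.5 CPM in WT libraries (log2 fold change 0.26 ± 0.12, adjusted p = 0.0835). The acyl carrier protein itself, Ndufab1, had 38.8, 44.0 and 46.3 CPM in Rik null and 38.8, 48.3 and 56.9 CPM in WT libraries (-0.16 ± 0.08, adjusted p = 0.124).

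Of the 8 assembly factors with an Nduf name 2 fell and none rose, against 17.9% of all genes lower and 16.5% higher. At an unadjusted p under 0.05 there were 3 lower and 0 higher, in both edgeR and DESeq2. In edgeR 44.1% of all genes were under that p, in either direction. The median log2 fold change of the 8 factors, -0.16, was the lowest of the role groups. Ndufaf3 (ENSMUSG00000070283, chr9:108565537-108567434, minus strand), which acts with Ndufaf4 early in building the ubiquinone module, had 19.5, 22.4 and 24.6 CPM in Rik null libraries and 20.8, 31.1 and 36.9 CPM in WT libraries. Only the lowest WT library, replicate 6, lay within the Rik null range. Exons of Ndufaf3 share 48 bases with Impdh2 on the other strand. The log2 fold change was -0.43 ± 0.10 (SE, edgeR adjusted p = 0.0025), or 1.34-fold lower. Its partner Ndufaf4 had 31.2, 34.3 and 38.4 CPM in Rik null and 28.8, 33.4 and 37.4 CPM in WT libraries (log2 fold change 0.05 ± 0.07, adjusted p = 0.627).

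Ndufaf2 (ENSMUSG00000068184, chr13:108002715-108158623, minus strand), a paralogue of Ndufa12 that holds its place until the NADH module joins, had 8.39, 10.3 and 11.8 CPM in Rik null libraries and 9.73, 13.0 and 19.7 CPM in WT libraries. All 7 Rik null libraries were below the WT median, and 2 WT libraries lay within the Rik null range. The log2 fold change was -0.47 ± 0.14 (SE, edgeR adjusted p = 0.0115), the largest fall among the 47 genes. Exons of Ndufaf2 share 1955 bases with the lincRNA B230220B15Rik on the other strand, and whether counting used strand is not given in the sources used here, so this value is uncertain. Ndufaf5, known from human cells as a hydroxylase that modifies Ndufs7, had 18.3, 22.0 and 24.9 CPM in Rik null and 21.8, 25.0 and 29.8 CPM in WT libraries (-0.21 ± 0.09, adjusted p = 0.0653). Its partner Ndufaf8 was low and variable, at 5.70, 8.45 and 11.7 CPM in Rik null and 6.75, 10.4 and 18.5 CPM in WT libraries (-0.39 ± 0.19, adjusted p = 0.130).

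Ndufa4 and Ndufa4l2 keep their Nduf names although Ndufa4 is now assigned to complex IV. Ndufa4 (ENSMUSG00000029632, chr6:11900292-11907497, minus strand) had 222, 236 and 306 CPM in Rik null libraries and 157, 206 and 250 CPM in WT libraries, with 2 WT libraries within the Rik null range. Its log2 fold change was 0.23 ± 0.09 (SE, edgeR adjusted p = 0.0472), and the call was lost without any of Rik null replicates 1, 4, 5 or 7 or WT replicates 3, 4, 5, 6 or 7 (adjusted p 0.0559 to 0.0925), with sex as a covariate (0.0610) and with the ribosomal protein level of each library as a covariate (0.0894). Ndufa4l2, a paralogue known to be induced by hypoxia, was close to the detection limit, with 0.344, 1.32 and 2.59 CPM in Rik null and 0.516, 1.32 and 2.28 CPM in WT libraries (-0.19 ± 0.37), and a difference of that size was not detectable at this depth.

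**Figure D2:**
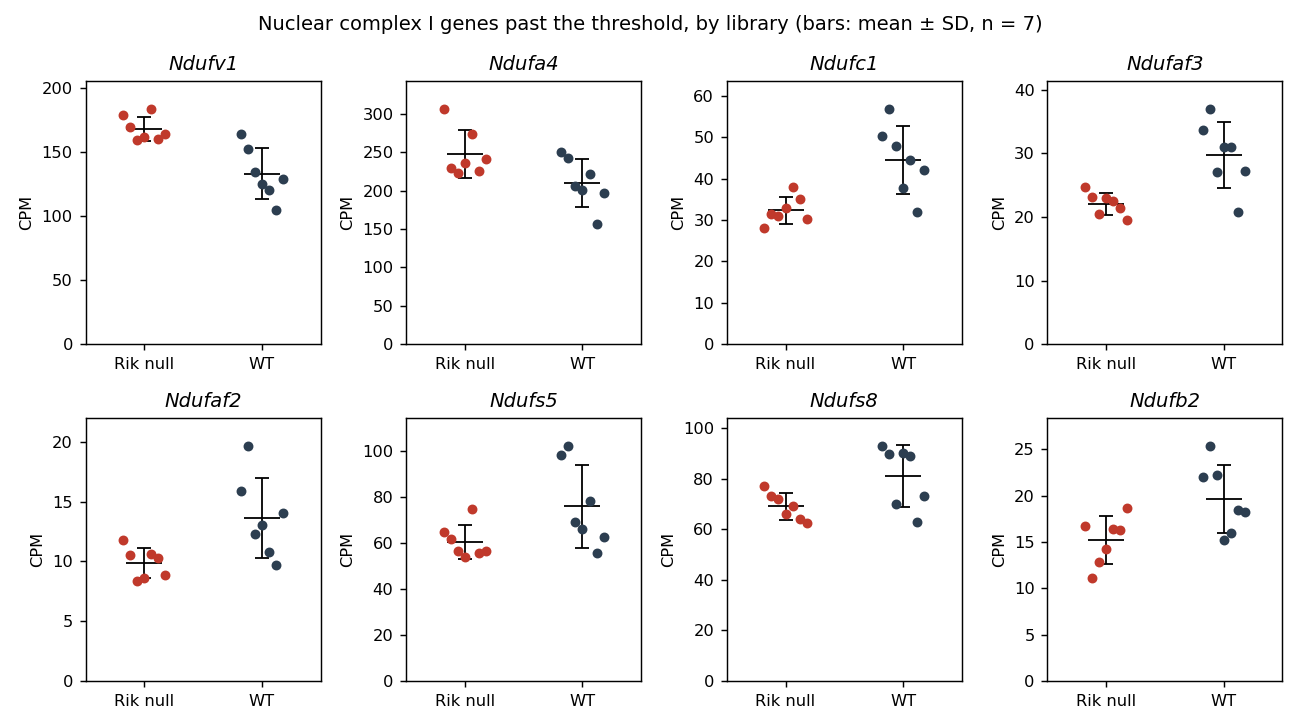
CPM (y axis, starting at 0) of the 8 nuclear complex I genes that passed the test, in each of 7 Rik null (red, left) and 7 WT (dark, right) libraries, with mean and SD. The ranges of the genotypes overlap in every panel, least in Ndufv1 and Ndufaf3, where 1 WT library lies within the Rik null range.

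Per gene length, as transcripts per M (TPM) computed from the deposited counts and gene lengths, Ndufa4 was the highest of the 48 genes, at 676 ± 66.5 TPM in Rik null and 518 ± 55.8 TPM in WT libraries (SD, n = 7 each). The highest levels of the 3 groups of accessory subunits were close to each other in WT libraries, with 330 ± 109 TPM for Ndufa2 of the peripheral arm, 330 ± 133 TPM for Ndufa1 of the proximal and 320 ± 45.2 TPM for Ndufb11 of the distal membrane arm. These neighbours did not differ beyond their spread. The lowest tested genes of the core and of the 3 accessory groups in WT libraries were Ndufs1 (74.9 TPM), Ndufv3 (57.5 TPM), Ndufc1 (101 TPM) and Ndufb2 (11.9 TPM). Assembly factors were lower than most subunits, between 15.6 TPM for Ndufaf2 and 55.5 TPM for Ndufaf3 in WT libraries. TPM are relative to all genes of a library and were not compared between genotypes. The deposited length of Ndufb2 is 5628 bases, and a length above that of the transcripts present lowers a per-length level.

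Complex I also needs assembly factors without an Nduf name. Of 15 tested genes of such a list 9 fell and 1 rose, against 17.9% of all genes lower and 16.5% higher, and the median log2 fold change was -0.32. The 2 lowest were Timmdc1, an inner membrane factor for the membrane arm, and Pyurf, which in human cells stabilises Ndufaf5. Timmdc1 had 7.77, 11.1 and 12.3 CPM in Rik null libraries and 15.4, 19.0 and 20.2 CPM in WT libraries, without overlap (log2 fold change -0.78 ± 0.11). Pyurf had 6.81, 10.5 and 13.4 CPM in Rik null and 15.1, 19.9 and 20.7 CPM in WT libraries, also without overlap (-0.82 ± 0.12). Acad9 (-0.41 ± 0.09) and Tmem126b (-0.32 ± 0.09) did not overlap between genotypes either, and so 4 of 15 were apart against 12.4% of all genes. Of the factors with an Nduf name, Ndufaf1 had a log2 fold change of -0.11 ± 0.10 and did not pass. The others that fell were Rtn4ip1 (-0.58), Sfxn4 (-0.46), Lyrm2 (-0.43), Aifm1 (-0.32) and Tmem70 (-0.20), of which Tmem70 did not pass without any of Rik null replicates 2, 3 or 6 or WT replicates 1, 2 or 4 (adjusted p 0.0507 to 0.0674). The one that rose was Foxred1 (0.27 ± 0.08, edgeR adjusted p = 0.016). Of the rest of the list, Dmac1 (-0.22), Tmem126a (-0.03), Ecsit (-0.03), Nubpl (0.06) and Tmem186 (0.16) did not pass. This list was chosen with earlier results of these data known. Genes of the list that passed as lower were 2 with females alone and 6 with males alone, in fits with fewer libraries.

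Of 10 genes for transcription regulators of the respiratory chain, among them Nrf1, Gabpa and Yy1, 1 passed, against 34.4% of all genes. Gabpb1, the partner of the ETS factor GABPA, had 17.7, 21.9 and 29.3 CPM in Rik null libraries and 16.5, 18.2 and 22.0 CPM in WT libraries (log2 fold change 0.29 ± 0.10, edgeR adjusted p = 0.033), and the median of the list was 0.04. The call for Gabpb1 was lost without any of Rik null replicates 1, 3 or 4 or WT replicates 1, 2, 4 or 5 (adjusted p 0.0506 to 0.0734). The 7 core subunits encoded by mitochondrial DNA all fell, from -0.43 (mt-Nd1) to -1.56 (mt-Nd4l), with a median of -1.35, against 17.9% of all genes lower. For 6 of the 7, all but mt-Nd1, the genotypes did not overlap, against 12.4% of all genes. The summed CPM of the 7 was 9.59 to 15.4 times that of the nuclear core in Rik null libraries and 21.8 to 32.8 times in WT libraries, without overlap.

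The nuclear complex I genes moved together from library to library. A score was taken for each library as the mean log2 CPM of the 47 genes relative to the WT mean. It ran from -0.25 (replicate 3) to 0.14 (replicate 5) over the Rik null libraries and from -0.42 (replicate 6) to 0.32 (replicate 2) over the WT libraries, so that the WT libraries enclosed the Rik null ones. Within genotype, each gene's deviations over the 14 libraries correlated with the mean of the other members with a median r of 0.85, and r was over 0.5 for 41 of 47 genes. Ndufb8 followed the others most closely (0.98), and Ndufa10, Ndufa4l2, Ndufaf7 and Ndufaf6 did not follow them (-0.25 to -0.09). These values are descriptions over libraries that share depth, scaling and extraction.

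**Figure D3:**
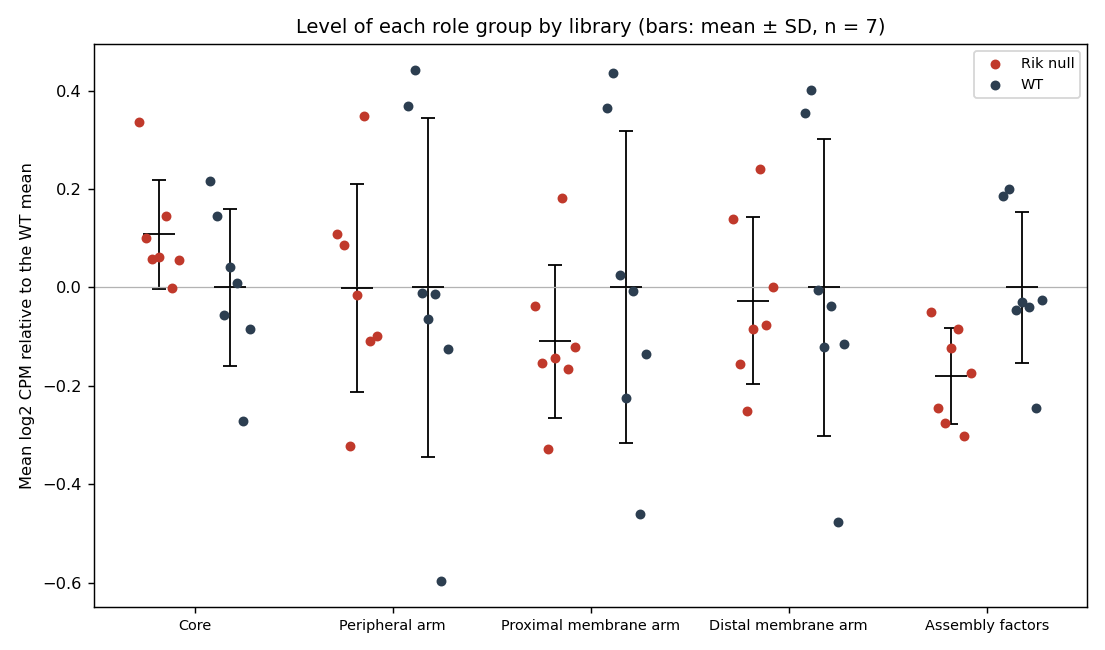
Mean log2 CPM relative to the WT mean (y axis) of 5 role groups in each Rik null (red, left of each pair) and WT (dark, right) library, with mean and SD over 7 libraries. Core subunits average 0.11 above the WT mean in Rik null libraries and assembly factors 0.18 below it, and in all 5 groups WT replicate 6 is the lowest WT library.

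Other nuclear gene groups showed the same library pattern. Within genotype the score correlated over the 14 libraries with the score of 50 nuclear genes of complexes II to V (r = 0.97) and of 95 cytosolic ribosomal protein genes (r = 0.91). Of those 50 genes 6 passed, all lower (median -0.03), and of the 95 ribosomal protein genes 15 rose and 2 fell (median 0.18), against 16.5% of all genes higher and 17.9% lower. The score ran opposite to the slope of each library's log2 CPM deviation on log2 gene length over all tested genes (r = -0.97). That slope ran from -0.051 to 0.025 in Rik null libraries and from -0.052 to 0.086 in WT libraries, and the second principal component of all genes correlated with it as well (r = -0.91, 14 libraries). Short genes varied most: the correlation of gene length with the range over WT libraries was -0.60 (Spearman, across 47 genes, which are not independent replicates). The median range over the 7 WT libraries was 0.77 log2 units for the nuclear complex I genes and 0.57 for all genes, and over the 7 Rik null libraries it was 0.49 for the nuclear complex I genes.

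**Figure D4:**
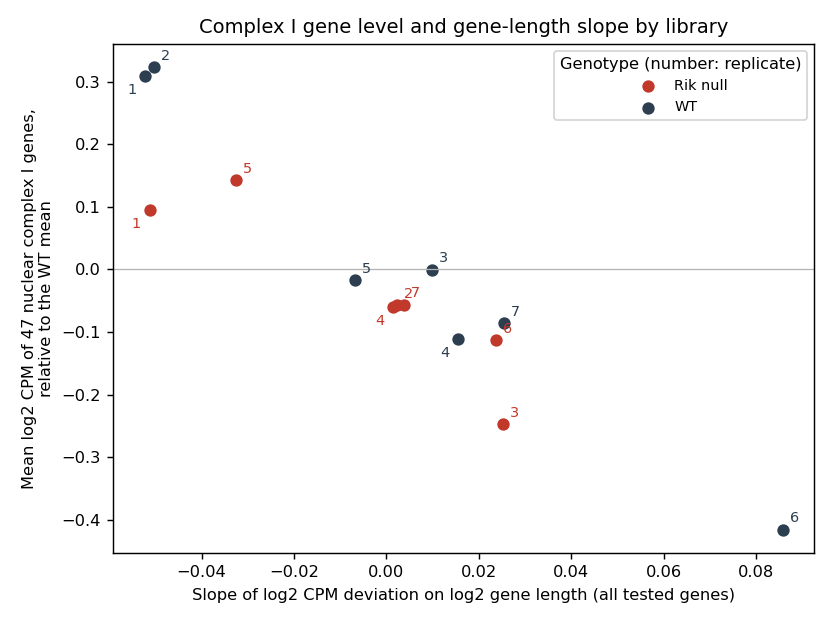
Mean log2 CPM of the 47 nuclear complex I genes relative to the WT mean (y axis) against the slope of log2 CPM deviation on log2 gene length (x axis), 1 point per library, Rik null in red and WT in dark with replicate numbers. WT replicates 1 and 2 lie at the upper left and WT replicate 6 at the lower right, at -0.42, and the Rik null points lie between them.

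A fit with that slope as a covariate called 14 of the 47 genes, against 40.2% of all genes in the same fit. It kept all 8 calls, and the median SE of the 47 genes was 0.067 with the covariate and 0.10 without it. The 6 added calls were Ndufb9 (log2 fold change 0.24 ± 0.05) and Ndufs3 (0.17 ± 0.05), which were higher, and Ndufaf8 (-0.42 ± 0.11), Ndufa13 (-0.23 ± 0.06), Ndufaf5 (-0.23 ± 0.08) and Ndufab1 (-0.18 ± 0.06), which were lower. In that fit 10 genes fell, against 20.5% of all genes lower, and 4 of the 8 assembly factors were among them. With the ribosomal protein level of each library as the covariate 19 passed, 1 higher and 18 lower, against 37.3% of all genes. That level averaged 0.16 log2 units above the WT mean in Rik null libraries (SD 0.18, and 0.24 over WT libraries). The libraries overlapped in it, at -0.07 to 0.48 in Rik null and -0.42 to 0.29 in WT, and a link of this level to genotype was not tested. If it does differ with genotype, a difference adjusted for it is not the same quantity as one without it. Both covariates were measured on the same libraries, and what they stand for was not tested. Without the 4 libraries of most extreme slope (Rik null replicate 1 and WT replicates 1, 2 and 6) 4 rose and 4 fell, against 28% of all genes, and this set was chosen after seeing the data.

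**Figure D5:**
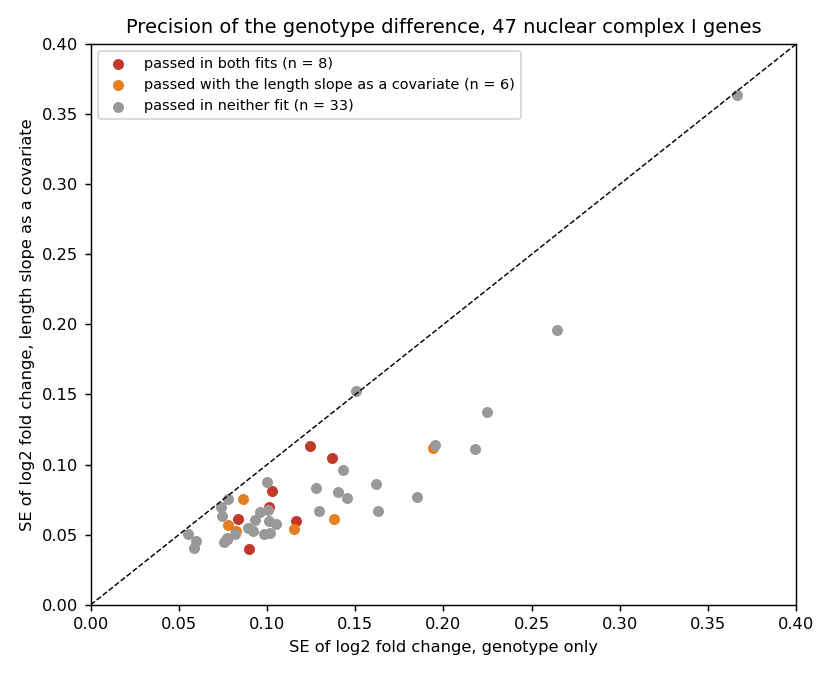
SE of the log2 fold change of each of 47 nuclear complex I genes with genotype as the only term (x axis) and with the gene-length slope as a covariate (y axis), and the dashed line marks equal values. Points lie below or near the line, 8 genes passed in both fits (red), 6 with the covariate (orange) and 33 in neither (grey).

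A ratio within a library does not depend on its scaling. The ratio of Ndufv1 to Ndufc1 CPM, a pair chosen after their values were seen and so without a test, was 4.57, 5.18 and 6.37 (lowest, median and highest) in Rik null libraries and 2.69, 3.06 and 3.33 in WT libraries. Both genes varied with the other members over the libraries within genotype (r = 0.94 for Ndufv1 and 0.78 for Ndufc1).

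Whether the genotype difference of these genes differed between the sexes was tested with an interaction term. In edgeR 0 of the 47 genes and 0 of 16882 genes passed, and 1 member, Ndufa12, had an unadjusted p under 0.05 (adjusted p = 0.832). Its log2 fold change was -0.83 ± 0.23 in females alone (adjusted p = 0.0255) and 0.32 ± 0.31 in males alone. Its counts in females were 434, 435, 386 and 507 in Rik null and 1102, 579 and 425 in WT libraries. In males they were 955, 490 and 1160 in Rik null and 996, 574, 334 and 590 in WT libraries. Reads of its pseudogene were not added in these fits. With females alone (4 Rik null, 3 WT) 5 nuclear complex I genes passed, all lower, with 1 higher at an unadjusted p under 0.05, against 16.4% of all genes. With males alone (3 Rik null, 4 WT) 1 rose and 1 fell, against 15.8% of all genes.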

How the data were processed

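Brain RNA of 7 Rik null and 7 WT mice at P23 was sequenced by a commercial provider. The deposited table holds raw counts of 56748 genes, with FPKM, gene lengths, a mean normalized signal per genotype, and log2 fold changes and p-values of their own comparison (a DESeq2 Wald test). Counts and, for TPM, gene lengths (other values of the deposited table) were used. The deposited FPKM and the deposited signal were not used, nor were the authors' log2 fold changes and p-values. The submitters' processing notes name GRCm38. The sources used here do not give the aligner, annotation, counting tool or strand setting. Gene positions were taken from GENCODE M21 by gene identifier, and promoter sequences from RefSeq on GRCm38.p6.

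The test was edgeR 4.0.16 run in R 4.3.3 (glmQLFit and glmQLFTest, two-sided, trimmed mean of M values (TMM) scaling, filterByExpr, genotype as the only term) across the whole table, with Benjamini-Hochberg adjustment and a threshold of 0.05. The SE of a log2 fold change was derived from its F value. The scripts were checked on simulated data. Total counts of 14.7 to 17.9 M per library and a common biological coefficient of variation of 14.3% set the precision, and no 2 libraries of a genotype agreed within sampling noise (smallest chi-square per degree of freedom 4.47). Each library is 1 mouse.

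Members were all protein-coding rows with an Nduf name. Named in the text are the members that passed, the member of smallest p and the highest and lowest per-length level of each role group, Ndufs4, Ndufa4, Ndufa4l2, the mt-Nd mRNAs and the members of the other assembly and regulator lists that passed. Further members were named after their values were seen. Of the members, 1 core subunit entered the counts and medians but is not reported by name here. Coa1, of the assembly list, was not matched and is not analysed here. Members, role groups and lists were chosen with earlier results of these data known. Alternatives were RLE factors, unscaled library sizes, scaling without mitochondrial genes, other filters, DESeq2 1.42.0, the robust option, sex, the replicate number, the gene-length slope or the ribosomal protein level as a covariate, each library left out, and females or males alone. Leaving out the 4 libraries of most extreme slope (WT 1, 2 and 6 and Rik null 1) and summing Ndufa12 with its pseudogene were added after seeing the data.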

Additional observations from a re-analysis of the deposited data

How the results depend on the processing

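No called value changed sign under any alternative. The median of the 47 genes, -0.04, was between -0.12 (without WT replicate 6) and 0.03 (without WT replicate 2) with 1 library left out, and it was also positive without WT replicate 1 (0.01), with unscaled library sizes (0.03), with males alone (0.04) and without the 4 libraries of extreme slope (0.02). Under 29 alternatives Ndufv1, Ndufc1 and Ndufaf3 passed in 28 each and Ndufaf2 in 27, and these 4 passed with any 1 library left out, against 22 for Ndufb2, 18 for Ndufs8, 17 for Ndufs5 and 15 for Ndufa4. With females alone Ndufv1 (adjusted p = 0.0902) and Ndufaf2 (0.116) did not pass, nor with males alone Ndufc1 (0.113), Ndufaf3 (0.223) and Ndufaf2 (0.124). The count of 8 (2 higher, 6 lower) was the same with RLE factors, other filters and DESeq2. The robust option gave 7 (2 higher, 5 lower), without Ndufs5 (adjusted p = 0.0509). With unscaled library sizes 6 were higher and 3 lower. Sex as a covariate gave 1 higher. The gene-length slope gave 14 (4 higher, 10 lower), and the ribosomal protein level gave 19 (1 higher, 18 lower) with a median of -0.17, so the balance of directions depends on this covariate. With 1 library left out, 5 to 10 were called, 1 to 4 higher and 3 to 9 lower. There were 5 without Rik null replicate 4 or 7 or WT replicate 5, 4 higher and 3 lower without WT replicate 2, 9 lower without WT replicate 6, and 1 higher wherever Ndufa4 was lost. Genes that passed in such a fit but not with all libraries were Ndufs3 without Rik null replicate 6 (adjusted p = 0.0429) or WT replicate 2 (0.0285), Ndufb9 without WT replicate 2 (0.0179), Ndufaf5 without Rik null replicate 1 (0.0386) or WT replicate 6 (0.0348), and Ndufaf8 (0.0484) and Ndufab1 (0.0294) without WT replicate 6. Without Rik null replicate 1 and WT replicate 4 there was 1 higher and 6 lower, and without the 4 libraries of extreme slope 4 higher and 4 lower. Females alone gave 2874 genes called (1282 higher, 1592 lower), 5 of the 47 (0 higher, 1 at an unadjusted p under 0.05) and 2 lower of the other assembly genes. Males alone gave 2737 (1241 higher, 1496 lower) and 2 of the 47 (1 higher, 1 lower). Fewer libraries entered these fits. The cause of the other moves was not tested.

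The replicate numbers gave no clear pairing of the samples: deviations of same-numbered libraries correlated at -0.06 to 0.14, and 1 of 7 pairs was over 0.1. However, 3 of 7 numbers matched best with their own, and the sample titles give no litter, so a pairing cannot be settled from these values. With the replicate number as a block 11 of the 47 genes passed, 5 higher and 6 lower, against 5966 of all 16882 genes (2898 higher, 3068 lower).

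With 7 libraries a genotype the median SE was 0.10, and a difference of that size would not pass. The smallest difference that passed was -0.23 ± 0.08 (Ndufs8), and 0.26 ± 0.12 (Ndufb9) did not pass. A gene that did not pass may therefore differ by more than 0.10. In addition, 20 of the 48 genes share exonic bases with another gene, and the strand setting is not given in the sources used here.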
